A study of Mus musculus with 9 samples.

Results

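The miRNA repertoire of Tut4/7 control Meis1/Hoxa9 cells was described from 5 small RNA libraries, out of 9 in the series. These preleukemic cells derive from c-Kit-enriched mouse fetal liver progenitors that were transduced with retroviral Meis1 and Hoxa9, the transcription factors whose joint overexpression immortalizes myeloid progenitors. All of the 5 libraries carry the treatment label Hox9/Meis1 and the genotype label WT, and the study derived its control cells from Tut4 fl/fl; Tut7 fl/fl littermates without Vav-iCre. The cells were grown in IMDM with serum, Stem Cell Factor, IL-6 and IL-3, so they model a cytokine-dependent culture and not leukemia in an animal. The study's methods state in general that replicates came from different animals or embryos, while the labels only number the libraries and tie none of them to an embryo, so an error given here is the spread between these libraries. A mature miRNA was included when it had at least 50 reads in each of the 5 libraries, which 97 of the 817 miRNAs in the count table did. These 97 miRNAs comprised 53 named 5p, 40 named 3p and 4 without an arm in their name, and held between 97.9% and 98.5% of the miRNA reads of a library.

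A miRNA hairpin is cut by Drosha and Dicer into a duplex of a 5p and a 3p strand, and usually 1 strand is retained by an Argonaute protein while the other is lost. The seed, bases 2 to 8 of the retained strand, pairs with target mRNAs, so miRNAs with the same seed form a family. The 3′ end of a miRNA can be trimmed or extended after processing, and terminal uridylyltransferases such as TUT4 and TUT7 add uridines there. In a small RNA library an added uridine is read as a T past the annotated mature end. A read with such a T is called T-ending here, because Dicer or Drosha cutting 1 base further along a hairpin that has a T at that position gives the same read.

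Sequences are given first for the most abundant families and for pairs of family members whose 3′ ends behaved differently. They are mature sequences from RefSeq, 5′ to 3′, with the seed in capitals.
let-7i-5p: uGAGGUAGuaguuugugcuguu
let-7a-5p: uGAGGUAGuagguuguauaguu
miR-92a-3p: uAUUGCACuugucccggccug
miR-25-3p: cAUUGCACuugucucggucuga
miR-181a-5p: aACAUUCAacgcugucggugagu
miR-181d-5p: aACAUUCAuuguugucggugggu
miR-191-5p: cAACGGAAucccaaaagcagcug
miR-26a-5p: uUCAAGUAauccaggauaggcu
miR-26b-5p: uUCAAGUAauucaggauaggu
miR-148a-3p: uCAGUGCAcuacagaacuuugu
miR-148b-3p: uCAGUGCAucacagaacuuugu
miR-27a-3p: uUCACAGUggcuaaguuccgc
miR-27b-3p: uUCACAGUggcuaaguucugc
miR-155-5p: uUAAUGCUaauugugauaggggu
miR-223-3p: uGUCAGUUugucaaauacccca
RefSeq held 85 of the 97 miRNAs. The 97 had 78 seeds, and 13 of these seeds were shared by 2 or more miRNAs, 32 miRNAs in all.

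The libraries held 209702, 242106, 316620, 265290 and 288760 miRNA reads in replicates 1 to 5. Replicate 2 stood apart in the 3′ ends described below: it had the lowest T-ending share of all libraries in 73 of the 94 miRNAs with any T-ending read. Its reads also had the highest share of starts shifted from the annotated first base, 3.23% against 1.38% to 2.26% in the other 4, but miR-10a-5p, with 39.1% shifted starts, had its highest level there. Without it replicate 2 had 1.45%, below the 1.72% of replicate 1 and the 1.48% of replicate 4. Results on 3′ ends are also given without replicate 2, and the cause of its low shares was not tested. Among markers of other tissues, miR-122-5p of hepatocytes had 128 to 377 reads per library and miR-200c-3p of epithelia 213 to 390. The remaining epithelial markers were low: miR-200b-3p had 3 to 16 reads, miR-200a-3p 1 to 4, and miR-141-3p and miR-205-5p 0 or 1 each. The erythroid miR-451a, the muscle miR-1a-3p, the neural miR-9-5p and the 4 fibroblast markers listed had 0 to 5 reads each. The erythroid miR-486a-5p had 5 to 41 reads and the lymphoid miR-150-5p had 1 to 18. The summed share was 0.00248% to 0.0142% of reads for the erythroid and 0.0762% to 0.154% for the 5 epithelial markers, and the part of such cells in the results was not tested. Of the 7 hematopoietic and myeloid markers, 5 were among the 97 miRNAs, but miR-142a-3p, which is abundant across blood cells, had only 19 to 40 reads and miR-142a-5p 0 to 4. Of the progenitor markers in the count table, miR-10a-5p had 205 to 11325 reads, miR-126a-3p 26 to 64, and miR-99b-5p and miR-125a-5p 0 to 6 each.

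The repertoire was dominated by few miRNAs. The 10 most abundant held 61.5% ± 3.72 (SD, n = 5) of miRNA reads, the leading 30 held 86.0% ± 0.781, and 9 miRNAs were among the first 10 in every library, out of 13 that were in any. let-7i-5p, of the let-7 family that represses growth and stem cell factors, took 14.1%, 14.8%, 14.3%, 12.2% and 13.2% of reads in replicates 1 to 5 and ranked first or second in each. miR-92a-3p, which matches a locus in the miR-17-92 oncogenic cluster and another on chromosome X, took 5.64%, 6.75%, 10.9%, 8.71% and 17.3%. It therefore varied more between libraries than let-7i-5p, and it was above let-7i-5p in replicate 5 alone. let-7a-5p took 10.3%, 4.94%, 10.2%, 9.84% and 5.30%, so that replicates 2 and 5 lay below the other 3. miR-191-5p was the least variable of the 97 miRNAs, with 6.97%, 6.85%, 6.46%, 6.11% and 6.02% and a coefficient of variation of 6.57%.

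The next places were taken by miR-181a-5p, a modulator of lymphoid and myeloid signaling, with 4.74% ± 1.10 of reads, and by miR-423-3p with 4.69% ± 0.596. miR-26a-5p followed with 4.19% ± 0.890, miR-25-3p with 3.77% ± 0.305, let-7g-5p with 3.37% ± 0.766 and miR-744-5p with 2.57% ± 1.49. The order between these neighbours was not fixed. miR-181a-5p exceeded miR-423-3p in 3 of 5 libraries, by a mean of 0.0470 ± 1.69 percentage points, and let-7i-5p exceeded miR-92a-3p in 4 of 5, by 3.85 ± 5.02. Of the first 9 neighbouring pairs, only miR-191-5p over miR-181a-5p held its order in every library, with a difference of 1.74 ± 0.849 percentage points. Places 11 to 15 went to miR-181b-5p (2.18% ± 0.309), let-7d-5p (1.98% ± 0.231), miR-148a-3p (1.93% ± 0.144), miR-24-3p (1.79% ± 0.544) and miR-221-3p (1.72% ± 0.321).

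**Figure D1:**
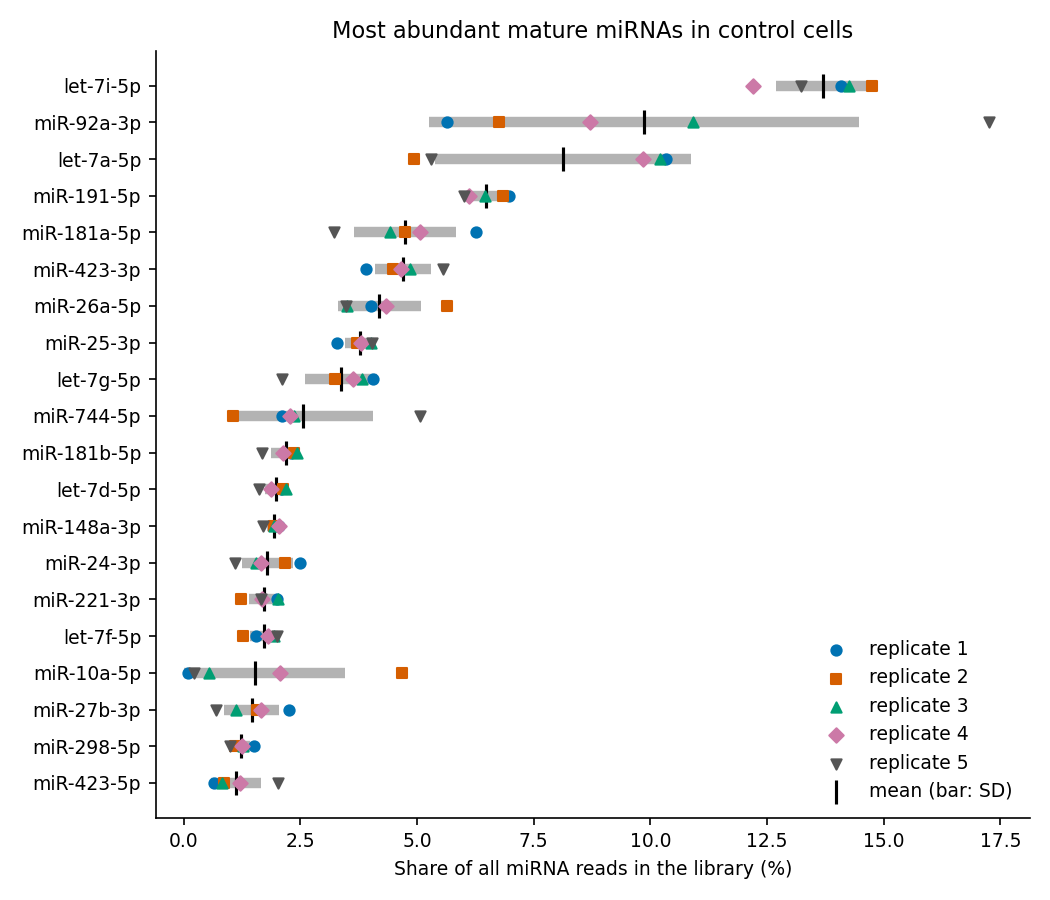
Share of all miRNA reads (%, x axis) of the 20 most abundant mature miRNAs (y axis) in each of the 5 control libraries (symbols). The black tick is the mean, and the grey bar spans the SD on either side of it, cut off at 0. let-7i-5p lies between 12.2% and 14.8%, while miR-10a-5p spreads from 0.0978% to 4.68%.

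Grouped by seed, the let-7 seed GAGGUAG held 29.2% ± 3.56 of reads in 7 miRNAs and led every other seed. The seed AUUGCAC of miR-92a-3p and miR-25-3p held 13.6% ± 4.85, and ACAUUCA of the miR-181 family held 7.05% ± 1.26 in 3 miRNAs. The members of a family were unequal in abundance. let-7i-5p and let-7a-5p led the let-7 family, whereas let-7b-5p had 8 to 34 reads and let-7e-5p 1 to 10. miR-32-5p, which has the seed of miR-92a-3p, had 0 or 1 read. Of the 6 miRNAs listed for the miR-17 seed family, 4 were in the count table and 2 among the 97, miR-93-5p (0.568% ± 0.130 of reads) and miR-17-5p (0.0618% ± 0.0180).

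The median coefficient of variation of the 97 shares was 30.4%. miR-10a-5p, encoded within the Hoxb cluster, was the most variable with 127%, and it had 205, 11325, 1687, 5470 and 643 reads in replicates 1 to 5. Replicates 2 and 4 were high and replicates 1 and 5 low, a range of 47.8-fold in the share of reads. In bulk libraries, fewer cells with a miRNA and fewer copies per cell cannot be told apart. The other 2 listed miRNAs of the Hox clusters, miR-10b-5p and miR-196a-5p, had 2 to 6 and 0 or 1 reads. miR-196b-5p was not in the count table, so it has no value here. miR-223-3p, a marker of granulocytic and monocytic cells, had 2563, 1175, 2010, 2750 and 796 reads, and miR-155-5p, which is induced in activated and proliferating myeloid cells, had 369, 195, 813, 669 and 1522. These miRNAs did not vary together: miR-223-3p was lowest and miR-155-5p highest in replicate 5. Across the 97 miRNAs, Spearman's rho of abundance between 2 libraries lay between 0.848 and 0.971 over the 10 pairs of libraries.

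Arm usage was compared within each hairpin, with gene copies of the same name combined. The table listed both arms of 232 hairpins, and 76 of these had at least 50 reads over both arms in every library. By edgeR's quasi-likelihood test with a term for each library and Benjamini-Hochberg adjustment, the 5p arm was higher in 40 hairpins and the 3p arm in 35, so that 98.7% of the hairpins tested were called. The higher arm was the same in every library in 72 hairpins, 39 with 5p and 33 with 3p. It held over 90% of the hairpin's reads in 55 hairpins and over 99% in 33. Reads of 5p miRNAs made up 63.3% ± 3.52 (SD, n = 5) of a library and those of 3p miRNAs 35.9% ± 3.54.

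By the fitted log2 ratio, the strongest 5p bias was in let-7a, let-7g, miR-181b, let-7f and let-7i. The let-7a hairpins gave 107399 5p reads and 1 3p read over the 5 libraries, a ratio with an exact 95% interval from 19276 to 4242070 for counting error only. let-7g gave 44180 5p reads and 1 3p read, miR-181b 28740 and 1, let-7f 23060 and 3, and let-7i 180998 and 43, the last a 4209-fold difference. In each of these hairpins the 5p arm held at least 99.9% of reads in all 5 libraries.

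By the fitted log2 ratio, the strongest 3p bias was in miR-328, miR-320, miR-652, miR-200c and miR-151. miR-328 gave 0 5p reads and 4763 3p reads, which is at least 1588-fold higher against 3 counts over the group, and miR-151 gave 0 and 514, at least 171-fold higher. The place of both hairpins rests on a fitted value over an arm without reads, and miR-501, with 6 5p and 3093 3p reads, had a measured ratio of 516-fold, above the bound of miR-151. miR-320, whose hairpin bypasses Drosha, gave 1 5p read and 9445 3p reads, miR-652 gave 2 and 11041, and miR-200c gave 1 and 1545. In 5 of the 76 hairpins the minor arm had 0 reads in all 5 libraries.

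A smaller set of hairpins kept both arms, and in 9 the higher arm held under 75% of reads. miR-340 was the only hairpin without a call. Its 5p share was 59.0%, 45.9%, 45.4%, 58.5% and 46.5% in replicates 1 to 5, a log2 ratio of 5p over 3p of 0.06 (SE 0.29, adjusted P = 0.846, edgeR). miR-185, with a 5p share of 59.7% ± 7.33, passed narrowly (adjusted P = 0.0375, edgeR) and was above 50% in 4 of 5 libraries. miR-503 had a 5p share of 37.4% ± 5.30, miR-574 of 35.9% ± 8.16 and miR-330 of 65.6% ± 4.15, each on the same side of 50% in every library.

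The arm ratio of some hairpins moved with the library. In miR-23b the 5p share was 8.61%, 14.5%, 20.9%, 14.5% and 63.2% in replicates 1 to 5, and in miR-27a, which lies in a cluster with miR-23a and miR-24-2, it was 21.2%, 19.7%, 40.0%, 29.2% and 56.4%. Both hairpins were thus 3p-dominant in 4 libraries and 5p-dominant in replicate 5. let-7d had 85.0%, 89.7%, 84.6%, 82.0% and 56.7%, again with replicate 5 nearest to equal arms. Its 3p arm had 766, 592, 1262, 1084 and 3583 reads.

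**Figure D2:**
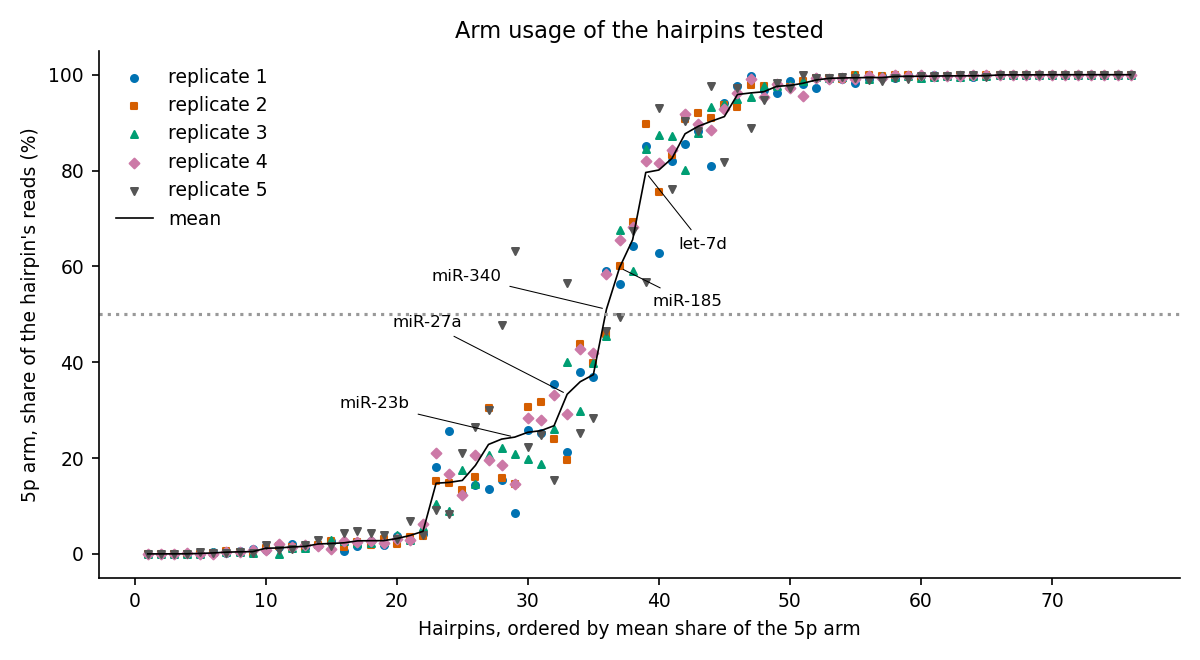
Share of a hairpin's reads that came from its 5p arm (%, y axis) for the 76 hairpins tested, ordered by the mean (x axis, black line), with 1 symbol per control library. Most hairpins lie near 0% or 100%, miR-340 sits near 50%, and replicate 5 lies above the other libraries in miR-23b and miR-27a and below them in let-7d.

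T-ending reads were 14.4%, 10.8%, 17.7%, 16.8% and 24.8% of all miRNA reads in replicates 1 to 5. Counting error was small beside these differences, with a 95% Wilson interval from 24.6% to 24.9% in replicate 5. miR-92a-3p alone gave between 37.7% and 68.0% of the T-ending reads of a library. Without it the shares were 9.53%, 4.75%, 7.95%, 9.13% and 9.58%. Replicate 2 was again the lowest and the other 4 lay close together. Exact mature ends made up 62.1% ± 2.85 (SD, n = 5) of reads and shorter ends 21.0% ± 2.67. Of the T-ending reads, 91.6% ± 2.97 passed the mature end by 1 base, 7.37% ± 2.41 by 2 bases and 1.03% ± 0.612 by 3 bases.

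The genome was read after each mature sequence in GRCm39, and 44 of the 97 miRNAs were followed by a T at 1 or more loci, against 53 that were not. Reads with more Ts than the genome offers at any locus were 2.94% ± 1.07 of all reads. They made up 3.83%, 1.17%, 2.74%, 3.64% and 3.31% in replicates 1 to 5. For the 53 miRNAs not followed by a T, a T past the end has no counterpart at the annotated loci.

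The T-ending share differed widely between miRNAs. Its median over the 97 was 4.67%, 0.855%, 3.59%, 4.76% and 5.03% in replicates 1 to 5, or 3.78% ± 1.73 (SD, n = 5) and 4.51% ± 0.632 without replicate 2. The mean share was under 1% in 19 miRNAs, between 1% and 10% in 48 and over 10% in 30, and it exceeded 50% in 8 and 90% in 3. In 18 miRNAs it was over 10% in every library, and in 10 it was under 1% in every library. The order of the miRNAs was compared between libraries. Across the 97 miRNAs, Spearman's rho of the share lay between 0.935 and 0.963 for pairs without replicate 2 and between 0.783 and 0.808 for pairs with it.

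**Figure D3:**
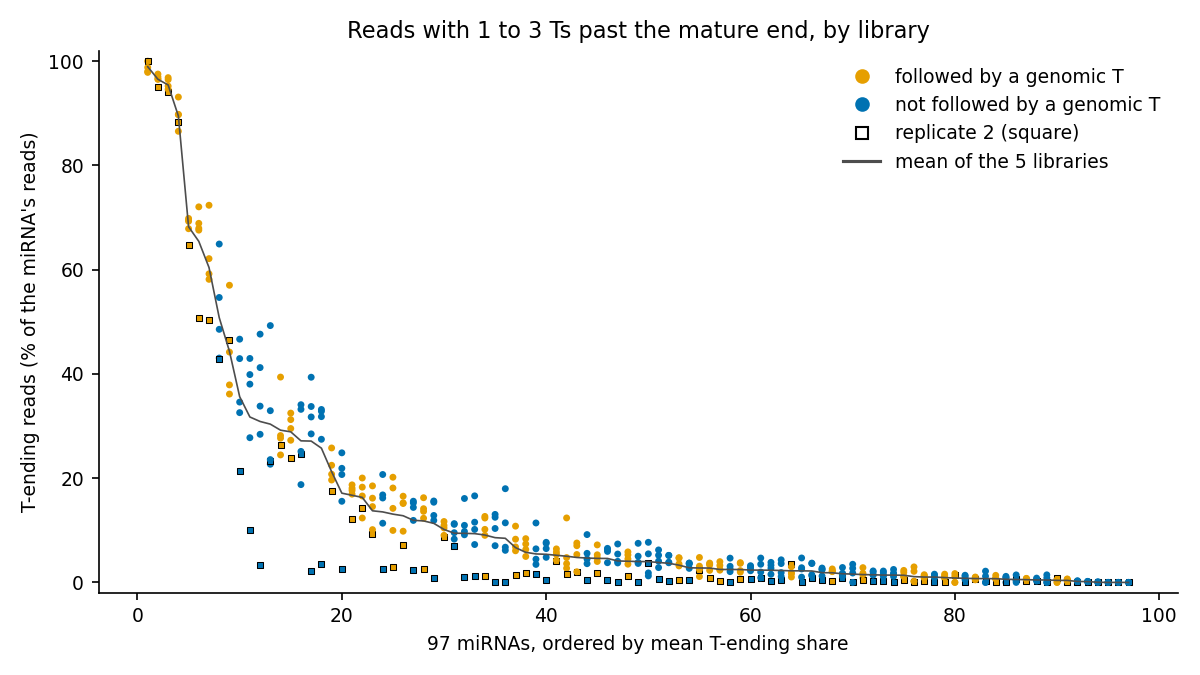
T-ending reads as a share of each miRNA's reads (%, y axis) for the 97 miRNAs ordered by their mean (x axis, line), with 1 point per control library. Orange marks the 44 miRNAs followed by a genomic T and blue the 53 that are not, and squares mark replicate 2, which lies below the other libraries in 73 miRNAs.

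The highest shares belonged mostly to miRNAs with a genomic T. miR-3963 led with 98.9% ± 1.03 (SD, n = 5) on 51 to 93 reads per library, but 100% of its reads began after the first annotated base. Its locus continues with 1 genomic T, and 0% of its reads had more Ts than that. Most of these reads thus lack the annotated start and run past the annotated end. miR-92a-3p had 96.5%, 95.0%, 97.0%, 96.6% and 97.5% T-ending reads in replicates 1 to 5. The mature sequence matched 2 loci, between which reads cannot be divided, and of these Mir92-1 (chr14:115281908-115281928, plus strand, GRCm39) continues with 2 Ts and Mir92-2 (chrX:51830731-51830751, minus strand) with an A. miR-7a-5p, which restrains growth factor signaling, had 95.4% ± 1.19 and is followed by 4 Ts at Mir7-1 and 1 T at Mir7-2. miR-26b-5p had 89.5% ± 2.42, miR-25-5p 68.2% ± 2.13 and miR-139-5p 65.4% ± 8.42, each followed by 1 genomic T. miR-155-5p, followed by 3 Ts in Mir155, had 72.4%, 50.3%, 62.1%, 58.1% and 59.2%. miR-30c-5p had 44.3% ± 8.28, with a T at both of its loci.

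A mean share over 10% was also reached by 12 miRNAs without a T at that position in the genome. miR-378a-3p, encoded in an intron of the metabolic coactivator gene Ppargc1b, was the highest with 43.0%, 42.8%, 48.6%, 54.7% and 64.9% in replicates 1 to 5, and all of its libraries lay above 40%. miR-342-3p, from an intron of Evl, had 32.6%, 21.4%, 42.9%, 34.6% and 46.7%. miR-223-3p had 39.9%, 10.0%, 27.8%, 38.0% and 43.0%. In miR-223-3p replicate 2 was the only library under 20%, and the mean without it was 37.2% ± 6.59. The others were miR-351-5p (30.9% ± 17.1), miR-30d-5p (30.4% ± 11.4), miR-21a-5p (27.2% ± 6.44), miR-652-3p (27.1% ± 14.5), miR-148b-3p (25.8% ± 12.6), miR-484 (17.1% ± 8.79), miR-328-3p (13.5% ± 6.96), miR-320-3p (11.9% ± 5.48) and miR-501-3p (11.3% ± 6.04).

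Abundant miRNAs with almost no T-ending reads stood beside them. miR-148a-3p, place 13 by abundance, had 0.163%, 0.106%, 0.148%, 0.204% and 0.123% T-ending reads in replicates 1 to 5, and 99.7% of its reads ended exactly at the annotated base. miR-27a-3p had 0.182% ± 0.106, let-7d-3p 0.922% ± 0.601, miR-23a-3p 0.474% ± 0.227 and miR-296-3p 0.740% ± 0.238. The low share of miR-27a-3p went with short ends, since 96.8% of its reads stopped before the mature end, and of the reads that reached it 5.38% ± 1.56 were T-ending. miR-296-3p likewise had 75.2% short reads and 3.20% T-ending reads among those that reached the end. In 3 miRNAs no T-ending read was seen. They were miR-27a-5p (0 of 3678 reads, which allows a share of up to 0.0816%), miR-92a-1-5p (0 of 549, up to 0.546%) and miR-148a-5p (0 of 538, up to 0.558%).

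Members of the same seed family differed at their 3′ ends. Of 35 pairs of the 97 miRNAs with a shared seed, 24 had the same order of T-ending shares in every library and 7 had values that did not overlap between the 2 miRNAs. Over all 4656 pairs of the 97 miRNAs, 71.7% had the same order in every library and 49.2% did not overlap. These shares are the background for the counts in seed pairs, which are therefore no result by themselves, and the pairs are described for their sequences.

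The pair miR-148a-3p and miR-148b-3p is the plainest. The mature sequences have the same length, differ at 2 positions and share their last 12 bases, and in GRCm39 neither is followed by a T. The reads are shown with the Ts past the mature end in capitals.
miR-148a-3p, exact: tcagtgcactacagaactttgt
miR-148a-3p, 1 T: tcagtgcactacagaactttgtT
miR-148b-3p, exact: tcagtgcatcacagaactttgt
miR-148b-3p, 1 T: tcagtgcatcacagaactttgtT
miR-148b-3p, 2 Ts: tcagtgcatcacagaactttgtTT
miR-148b-3p, 3 Ts: tcagtgcatcacagaactttgtTTT
The exact read made up 99.7% ± 0.0539 (SD, n = 5) of miR-148a-3p reads and 64.4% ± 10.5 of miR-148b-3p reads, and the read with 1 T made up 0.133% ± 0.0415 and 20.6% ± 10.0. In all, T-ending reads of miR-148b-3p were 27.5%, 3.51%, 31.8%, 33.2% and 32.8% in replicates 1 to 5. The difference from miR-148a-3p was 25.6 ± 12.6 percentage points, from 3.40 in replicate 2 to 33.0 in replicate 4, and every library of miR-148b-3p was above every library of miR-148a-3p.

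Over all reads, a difference was also seen between miR-27b-3p and miR-27a-3p, which differ at 1 position and are not followed by a T either. miR-27b-3p had 10.9%, 1.11%, 9.14%, 9.77% and 16.1% T-ending reads, against 0.0384% to 0.325% in miR-27a-3p. Their ends also differed on the short side, with 27.1% short reads in miR-27b-3p and 96.8% in miR-27a-3p. Among reads that reached the mature end the shares were 12.5% ± 6.98 for miR-27b-3p and 5.38% ± 1.56 for miR-27a-3p, the latter on 30 to 71 reads per library. These ranges overlapped, and in replicate 2 the order turned, with 1.79% for miR-27b-3p and 3.33% for miR-27a-3p.

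In other pairs the genome differs as well. miR-26b-5p (89.5% ± 2.42) is annotated 1 base shorter than miR-26a-5p (1.02% ± 0.544) and is followed by a genomic T, while miR-26a-5p is followed by a G at both loci. miR-92a-3p is followed by Ts at 1 locus and miR-25-3p, with 1.87% ± 0.996, is followed by a C. miR-16-5p (16.7% ± 2.59) lay above miR-15b-5p (0.527% ± 0.235), although both are followed by a T at 1 or more loci. Among the miR-181 miRNAs, miR-181d-5p had 29.2% ± 5.88, miR-181b-5p 21.2% ± 3.11 and miR-181a-5p 16.3% ± 3.06. RefSeq gives miR-181b-5p 1 base longer than the mapping reference, with a further U at the end. Its reads with 1 T, 17.1% ± 1.60 of its reads, thus reach the RefSeq end and do not pass it. miR-181d-5p was above miR-181a-5p in every library without overlap, and above miR-181b-5p in 4 of 5. miR-146b-5p (9.44% ± 1.86) lay above miR-146a-5p (3.82% ± 2.14) in every library, and neither is followed by a T.

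The 7 let-7 miRNAs stayed within 1.11% and 6.67% on average. let-7d-5p had 10.8%, 1.41%, 6.07%, 8.29% and 6.81% in replicates 1 to 5, and let-7i-5p, which like miR-98-5p is followed by a G at its locus, had 2.20%, 0.266%, 1.41%, 2.01% and 1.43%. let-7a-5p had 4.60% ± 1.96, let-7f-5p 5.77% ± 2.56, let-7g-5p 2.76% ± 1.17 and miR-98-5p 1.66% ± 0.758. let-7d-5p exceeded let-7i-5p in every library, by 5.21 ± 2.71 percentage points. However, let-7d-5p is followed by 2 genomic Ts, let-7a-5p by 1 or 2, let-7g-5p by 1 and let-7f-5p by 2 at Mirlet7f-2. Counting only reads with more Ts than the genome, the order turned. let-7i-5p then had 1.47%, against 0.0342% for let-7d-5p, 0.0190% for let-7a-5p and 0.0554% for let-7g-5p. let-7c-5p, with 1.11% ± 1.36, could not be placed, because 86.7% of its reads also matched another miRNA.

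Reads with 2 or 3 Ts past the end were rarer, and their mean share exceeded 1% in 23 miRNAs, of which 7 have 2 or more Ts in the genome. miR-181a-5p was the only miRNA with more reads at 2 Ts than at 1. Its reads are shown with the Ts past the mature end in capitals.
miR-181a-5p, exact: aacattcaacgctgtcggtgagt
miR-181a-5p, 1 T: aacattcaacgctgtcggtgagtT
miR-181a-5p, 2 Ts: aacattcaacgctgtcggtgagtTT
miR-181a-5p, 3 Ts: aacattcaacgctgtcggtgagtTTT
Both loci, Mir181a-1 (chr1:137894206-137894228, plus strand) and Mir181a-2 (chr2:38742753-38742775, plus strand), continue with 2 Ts in GRCm39. Reads past the end by 2 bases were 11.6%, 9.70%, 11.1%, 7.57% and 13.1% of miR-181a-5p reads in replicates 1 to 5, and those past it by 1 base 3.98%, 4.38%, 3.92%, 2.97% and 3.56%, so that the former were higher in every library. Reads past it by 3 bases, 1 more than the genome holds, were 2.73%, 0.209%, 1.55%, 1.82% and 3.39%. Relative to its mean, the spread over libraries was thus widest in the form without a genomic counterpart, and replicate 2 was lowest there.

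Among miRNAs not followed by a T, miR-223-3p, miR-148b-3p, miR-103-3p and miR-351-5p had the largest shares with 2 or 3 Ts.
miR-223-3p, exact: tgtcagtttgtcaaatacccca
miR-223-3p, 1 T: tgtcagtttgtcaaataccccaT
miR-223-3p, 2 Ts: tgtcagtttgtcaaataccccaTT
miR-223-3p, 3 Ts: tgtcagtttgtcaaataccccaTTT
Reads past the end by 2 bases were 14.3%, 4.09%, 7.51%, 12.6% and 21.6% of miR-223-3p reads, while those past it by 3 bases were 0.133% ± 0.143. In miR-148b-3p the shares at 2 and 3 bases were alike, 2.70% ± 1.38 and 2.44% ± 1.33. miR-103-3p, which acts on insulin signaling and metabolism, had 4.72% ± 2.95 at 1 base and 4.51% ± 2.72 at 2 bases but 0.122% ± 0.0898 at 3. miR-351-5p fell stepwise, with 26.5% ± 14.9, 3.33% ± 1.92 and 1.08% ± 0.857. Of the miRNAs with genomic Ts, miR-155-5p had 48.2% ± 2.28 at 1 base and 11.5% ± 8.20 at 2 bases, and the second form was lowest in replicate 2 with 0.513%, highest in replicate 1, and 12.2%, 13.5% and 8.21% in replicates 3 to 5. miR-26b-5p had 5.71% ± 2.89 at 2 or 3 bases, miR-1839-5p 5.15% ± 3.70, miR-186-5p 4.67% ± 2.84 and miR-181b-5p 4.13% ± 2.34.

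**Figure D4:**
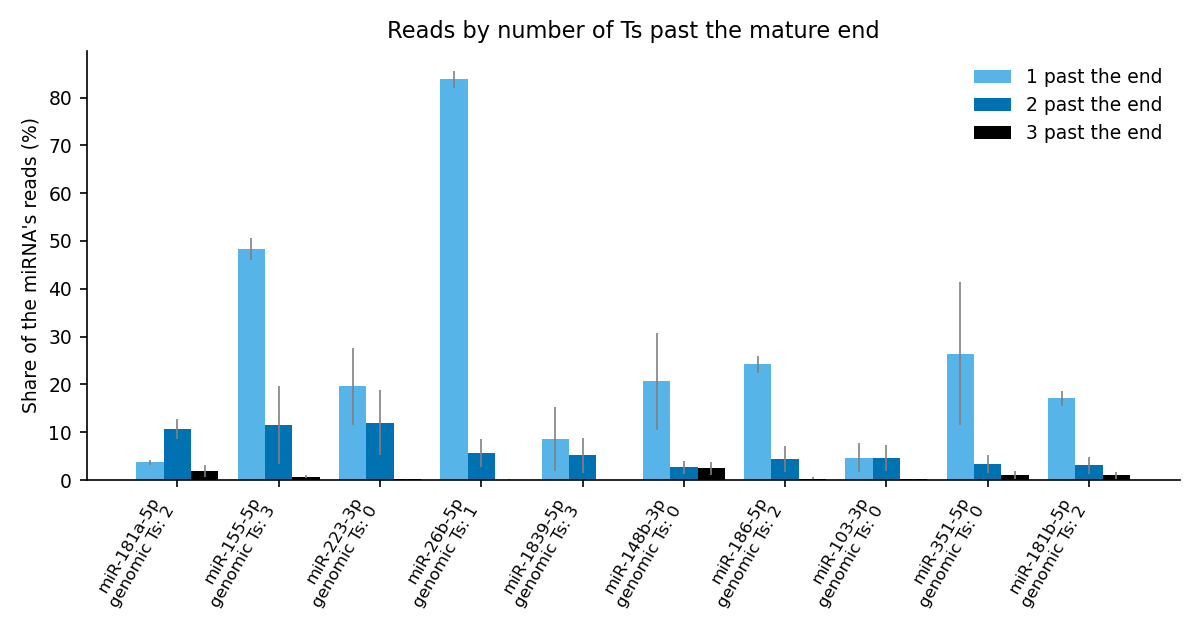
Mean share of the miRNA's reads (%, y axis) that passed the mature end by 1, 2 or 3 Ts in the 10 miRNAs with the highest share at 2 or 3, with the SD over the 5 control libraries as error bars and the longest run of genomic Ts over the loci under each name. miR-181a-5p has a higher bar at 2 than at 1, and miR-148b-3p has similar bars at 2 and 3.

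Genomic context was compared next. The median share was 3.07% ± 1.61 (SD over 5 libraries) in the 53 miRNAs not followed by a T, 3.33% ± 1.07 in the 28 with 1 genomic T, 6.63% ± 3.12 in the 13 with 2, and 60.4% ± 7.99 in the 3 with 3 or more. The last value is that of miR-155-5p alone, between miR-1839-5p with 13.7% and miR-7a-5p with 95.4%. In the other classes, mean shares ran from 0% to 50.8%, 0.386% to 98.9% and 0.719% to 96.5%. Over all 44 with a genomic T the median was 5.24% ± 2.12, which exceeded the median of the 53 in every library, by 2.17 ± 0.836 percentage points. The exact paired permutation test, two-sided, gave P = 0.0625, the smallest that 5 libraries allow. With a minimum of 200 reads in every library the difference turned to -0.371 percentage points, and it was 1.10 when only miRNAs with a T at every locus counted as followed by one. By the last base of the mature sequence, median shares were 7.86% ± 4.35 for G (23 miRNAs), 4.05% ± 1.97 for T (41), 2.40% ± 1.02 for C (19) and 1.98% ± 1.06 for A (14). In the 53 miRNAs not followed by a T, those ending in G were again highest with 8.18% ± 4.80 (12 miRNAs), and these values are a description over few miRNAs. Spearman's rho of the T-ending share was 0.0541 with the length of the mature sequence and 0.166 with the abundance, as descriptions over 97 miRNAs that share libraries and depth.

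The median share was 4.07% ± 1.75 in 5p and 3.29% ± 1.67 in 3p miRNAs, a difference of 0.783 ± 0.871 percentage points with the same sign in 5 of 5 libraries (exact paired permutation test, two-sided, P = 0.0625, the smallest possible). The order turned in the miRNAs not followed by a T, a subset taken after seeing the data: 1.46% ± 0.707 in 22 5p and 3.93% ± 2.21 in 30 3p miRNAs, lower in 5p in every library. It also turned with a minimum of 20 reads, to -0.416 percentage points, whereas with a minimum of 200 reads it widened to 3.58, and without replicate 1 it was 0.416.

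Arms of the same hairpin allow a comparison within a gene. Both arms were among the 97 miRNAs in 16 hairpins, and the odds of a T-ending read differed between the arms in 10 of them (62.5% of those tested, edgeR's quasi-likelihood test with Benjamini-Hochberg adjustment). The 5p arm was higher in let-7d, miR-25, miR-30c, miR-181a, miR-330 and miR-423, and the 3p arm in miR-27a, miR-92a, miR-223 and miR-378a. In miR-25 the 5p arm had 68.2% ± 2.13 and the 3p arm 1.87% ± 0.996 T-ending reads (log2 odds ratio 7.06, SE 0.57, adjusted P = 7.61e-18, edgeR). miR-25-5p is followed by a genomic T and miR-25-3p is not. miR-30c had 44.3% ± 8.28 on the 5p and 3.58% ± 2.27 on the 3p arm (log2 odds ratio 4.37, SE 0.41, adjusted P = 5.50e-15, edgeR). miR-30c-5p is followed by a T at both loci, while the 3p arm combined 2 copies. miR-30c-2-3p, followed by a C, had 27 of 614 T-ending reads, and miR-30c-1-3p, followed by 2 Ts, had 0 of 99. In miR-92a the 5p arm had 0 of 549 reads with a T and the 3p arm 131423 of 135703.

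The hairpins miR-223, miR-378a and miR-27a have no genomic T after either arm, and their 3p arms were higher. miR-223 had 5.46% ± 3.76 on the 5p and 31.7% ± 13.4 on the 3p arm (log2 odds ratio -3.15, SE 0.40, adjusted P = 1.55e-10, edgeR), with the 3p arm higher in 5 of 5 libraries. miR-378a had 3.99% ± 2.66 and 50.8% ± 9.27 (log2 odds ratio -4.66, SE 0.53, adjusted P = 3.91e-12, edgeR). miR-27a had 0 of 3678 and 13 of 8680 T-ending reads. The adjusted P of miR-27a was 0.0166, and over 10 alternatives it ranged from 0.00778 to 0.0717, past the threshold in 6 (edgeR or DESeq2). In let-7d the 5p arm had 6.67% ± 3.45 and the 3p arm 0.922% ± 0.601, in miR-181a 16.3% ± 3.06 and 1.60% ± 1.57, and in miR-423 10.2% ± 1.25 and 2.80% ± 1.40, each with the 5p arm higher in 5 of 5 libraries. Unlike in the hairpins above, the 5p arm is followed by 2 genomic Ts in let-7d and miR-181a and by 1 in miR-423 and miR-330. The let-7d 3p arm is followed by 1. Counting only reads with more Ts than the genome, let-7d-5p had 0.0342%, let-7d-3p 0.146% and miR-181a-5p 1.94%. miR-330, with 5.21% ± 0.982 and 2.19% ± 1.36, was also higher on the 5p arm in 5 of 5, but it passed the threshold in only 3 of 8 alternatives, with an adjusted P from 0.0158 to 0.0962 (edgeR or DESeq2).

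The low values of replicate 2 were unequal between miRNAs. Its T-ending share was compared with the median of the other 4 libraries. The ratio had a median of 0.480 in the 44 miRNAs followed by a genomic T, with 23 under 0.5, and of 0.137 in 49 miRNAs not followed by a T, with 39 under 0.5. miR-652-3p, at 33.7%, 31.7%, 39.4% and 28.5% in replicates 1, 3, 4 and 5, had 2.22% in replicate 2. miR-351-5p had 28.4% to 47.6% in the others and 3.29% in replicate 2, and miR-148b-3p 27.5% to 33.2% and 3.51%. In some other miRNAs without a genomic T, replicate 2 lay within or just below the range of the other libraries. miR-21a-5p had 24.6% in replicate 2 and 18.8% to 34.1% in the others, miR-30d-5p 23.4% and 22.7% to 49.3%, and miR-378a-3p 42.8% and 43.0% to 64.9%. Of the first 3, miR-652-3p had more reads in replicate 2 than in any other library, 3381 against 1260 to 2266. miR-148b-3p had the fewest there, 1368 against 1413 to 1709, and miR-351-5p had 638 against 271 to 1029.

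**Figure D5:**
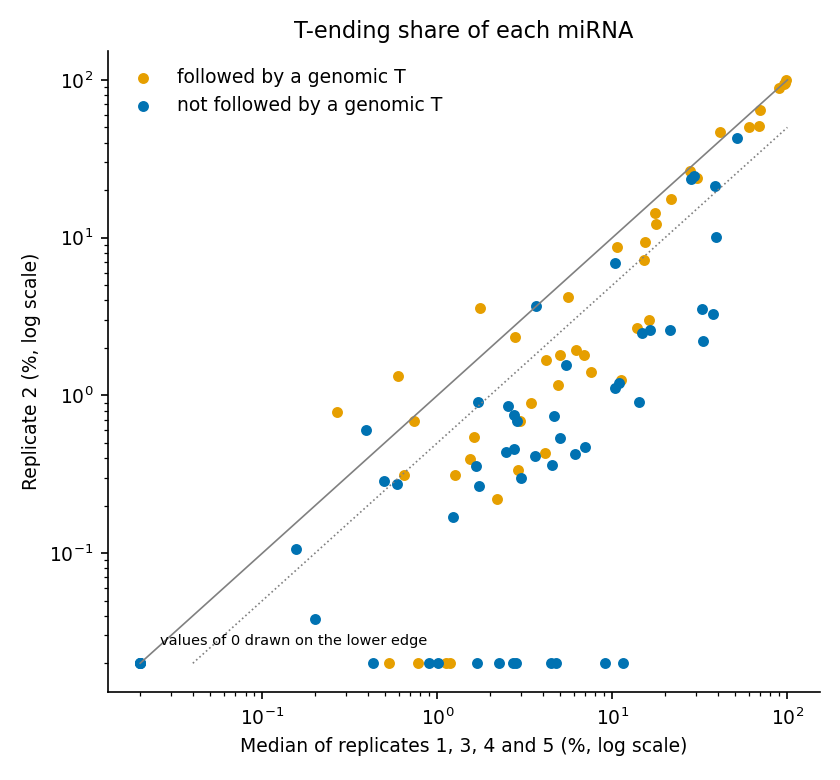
T-ending share of each of the 97 miRNAs in replicate 2 (%, y axis, log scale) against the median of the other 4 control libraries (%, x axis, log scale), in orange for miRNAs followed by a genomic T and in blue for those not followed. The solid line marks equal shares and the dotted line a ratio of 0.5, values of 0 are drawn on the lower edge, and 39 of 49 blue points with a nonzero median fall below the dotted line.

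Depth set the precision of single values. Where a miRNA had 50 reads, a count of 0 T-ending reads in a library allows a share of up to 6%. The variance of the share between libraries exceeded the binomial variance by a median factor of 4.16 over the miRNAs, and of 2.06 without replicate 2. The miRNAs nearest to the minimum were miR-3963 with 51 reads in its lowest library, miR-378a-5p with 52 and miR-1839-5p with 54. Just outside it lay miR-340-3p with 48, miR-503-3p with 46 and miR-139-3p with 45.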

How the data were processed

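Small RNA selected by gel from the 5 control samples was sequenced with NEBNext libraries without molecular identifiers. Per the paper's methods and the submitters' processing notes, the authors trimmed adapters with cutadapt 5.0 and mapped reads with Bowtie 1.3.1, without mismatches, to miRBase mature sequences followed by 3 Ts. The miRBase release and a genome build are not given in the sources used here. The authors deposited raw counts, not normalized, for each mature miRNA, and for every read sequence together with the reference positions it covered. Read sequences summed to the count table with 0 differences, and all marked sequences ended in Ts. A read with any base other than T past the mature end could not map, so only T additions were counted. Such reads, also those extended along the hairpin by A, C or G, are missing from all read totals as well. Shares, ranks and arm ratios are therefore those of mappable reads only.

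Shares were computed per library. Depth was 209702 to 316620 reads. Wilson intervals and the limit of 3 counts cover counting error only. Mature sequences were located in GRCm39 with the GENCODE annotation, and coordinates are from that match. Arm usage (a term for arm and for each library) and arm tailing (read class by arm, with terms for library by arm and library by read class) were fitted with edgeR 4.0.16 in R 4.3.3 with the quasi-likelihood test, and DESeq2 1.42.0 was an alternative. The library term is a replicate block that pairs the arms of 1 library. Medians were compared by exact paired permutation over all sign flips in Python 3.11.15. Wilson intervals and Spearman's rho were computed with SciPy 1.17.1. The fits were tested on simulated data, but the simulated tailing varied between libraries by counting error only. That simulation cannot show how the arm tailing fit behaves under the larger spread between these libraries. The members and lists were chosen with earlier results of these data known. By rule, the text names the 15 most abundant miRNAs, the 10 with the highest T-ending share, the 5 most abundant under 1%, the 10 with most reads at 2 or 3 Ts, the 5 most 5p-biased, 5 most 3p-biased and 5 most balanced hairpins, up to 10 hairpins past the arm tailing threshold, the 5 most abundant miRNAs with an outlying library, and examples of fixed lists. miRNAs without a genomic T over 10%, seed pairs, miR-23b, miR-27a and let-7d arms, miR-501, the miR-30c copies and miR-10a-5p were named after their values were seen. Mutant libraries were not used here.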

Additional observations from a re-analysis of the deposited data

Results flagged for a closer look

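In 10 of the 97 miRNAs, 1 library lay outside the spread of the other 4 by Dixon's criterion at 95%, and in 7 of the 10 this was a low replicate 2. Chance alone flags about 1 in 20 groups. The 5 most abundant of the 10 were all low in replicate 2: miR-106b-3p had 0.220% T-ending reads there against 2.07% to 2.58% in the other libraries, miR-139-5p 50.7% against 67.6% or more, miR-320-3p 2.47% against 11.9% to 15.6%, miR-148b-3p 3.51% against 27.5% to 33.2%, and miR-501-3p 0.907% against 11.9% to 15.6%. Of these, miR-106b-3p and miR-139-5p are followed by a genomic T and the other 3 are not. miR-16-5p was also low in replicate 2, with 12.2% against 16.9% to 18.7%, whereas miR-181d-5p was high in replicate 1, with 39.4% against 24.5% to 28.2%. By share of reads, 5 of the 97 miRNAs had an outlying library. This count is near the 1 in 20 that chance alone flags, so it is no result by itself. The outlying library was a high replicate 5 in 4 of them and a high replicate 2 in miR-1981-5p. let-7d-3p took 1.24% of reads in replicate 5 against 0.245% to 0.409% in the others, and miR-328-3p 0.840% against 0.134% to 0.286%. The other 2 were miR-130b-5p and miR-671-3p. The cause was not tested.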

How the results depend on the processing

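Counting only reads with more Ts than the genome holds, the share of T-ending reads fell from 16.9% to 2.94%, the median over the miRNAs from 3.78% to 0.908%, the miRNAs over 10% from 30 to 12, and the 1-base share of T-ending reads from 91.6% to 83.4%. Without miRNAs followed by a genomic T the overall share was 5.70%, with 12 miRNAs over 10%. Without miR-92a-3p it was 8.19%, with 84.7% at 1 base. The median was 6.65% among reads that reach the mature end, and the mean over miRNAs in its place was 13.4%. A minimum of 200 reads left 57 miRNAs and turned the genomic T difference from 2.17 to -0.371 percentage points. Counting only miRNAs with a T at every locus, it was 1.10. The difference between 5p and 3p miRNAs turned to -0.416 with a minimum of 20 reads and to -2.47 in miRNAs not followed by a T, a subset chosen after seeing the data, and widened to 3.58 with a minimum of 200. Without a filter on low counts, 72 and 60 hairpins were called for 5p and 3p, since more were tested. Arm tailing was called in 4 hairpins with at least 200 reads, and in 3 with no genomic T after either arm, since fewer hairpins were tested. Without the replicate block the calls stayed at 40 and 35 for arm usage and 10 for arm tailing, so that pairing changed no count, and DESeq2 gave 40, 35 and 9. The causes of the other changes were not tested. Leaving out each library in turn gave ranges of 14.9% to 18.4% for the overall share, 3.47% to 4.51% for the median, 29 to 36 miRNAs over 10%, 97 to 105 miRNAs, 1.86 to 2.36 percentage points for the genomic T difference, 0.416 to 0.957 for the arm difference and 8 to 11 arm tailing calls, with 39 to 40 hairpins called for 5p and 35 for 3p, 60.7% to 62.8% of reads in the 10 leading miRNAs and 90.9% to 92.8% of T-ending reads at 1 base. Without replicate 1 the arm difference was 0.416, against 0.783 with it.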
